A study of Tupaia belangeri with 15 samples.

Results

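The signalling cascade that ON bipolar cells (ON_BCs) use to read photoreceptor glutamate was followed as 10 genes: GRM6, TRPM1, NYX, GPR179, LRIT3, RGS7, RGS11, GNAO1, GNB5 and PCP2. They were looked up by gene name among 83605 features of the tree shrew (TS, Tupaia belangeri) retina, and 9 of the 10 were found. No feature carried the name NYX, which was not analysed here. They were listed by name and not by a cut on their values, with earlier results of these data known. Nuclei of 15 retinas had been profiled by single-nucleus RNA sequencing with the 10x Genomics platform, 5 each from animals at the Infancy, Mature and Senile stages, and GEO gives no treatment, genotype or further age. Senile animals came from another institute than the infant and mature animals, so in contrasts with the Senile stage, stage and source cannot be told apart. The libraries held 13429873 to 58734300 unique molecular identifiers (UMIs, counted molecules), and 111825 nuclei were kept.

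In ON_BCs the glutamate receptor mGluR6, encoded by GRM6, is switched on in darkness and acts through the G protein alpha subunit encoded by GNAO1 to close the cation channel TRPM1. Light lowers glutamate, the G protein is switched off by RGS7 and RGS11 bound to their partner GNB5, and the channel opens. GPR179 anchors the RGS proteins beside the receptor, LRIT3 and nyctalopin (NYX) are leucine-rich repeat proteins that bring TRPM1 to the dendritic tip, and PCP2 is a small regulator that binds G protein alpha subunits. OFF bipolar cells (OFF_BCs) answer glutamate through ionotropic receptors such as GRIK1 instead. Mutations of GRM6, TRPM1, GPR179, LRIT3 and NYX are known causes of congenital stationary night blindness.

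Nuclei were assigned from markers that include none of the 10 genes, and every class name below means a nucleus that resembles that class in its markers. The bipolar class held 29193 nuclei. ON_BCs were bipolar nuclei with a UMI of ISL1 and little or no GRIK1 (6183 nuclei), and OFF_BCs were those with GRIK1 and no ISL1 (14794 nuclei). The remaining 8216 bipolar nuclei met neither definition. ON_BCs were divided by PRKCA, the usual marker of rod bipolar cells, into 3088 nuclei with a PRKCA UMI and 3095 without. OFF_BCs were divided at limits of ERBB4 and DSCAM into 1482 ERBB4+ nuclei, 8474 DSCAM+ nuclei below the ERBB4 limit and 4453 low-DSCAM nuclei below both limits, and the few others, with DSCAM between 8 and 16 UMIs per 10000, were in no subset. The names are those of the limits and not of a lack of the genes. ERBB4 was at 27271 ± 3559 CPM (counts per 1000000) in ERBB4+, 159 ± 98.4 in DSCAM+ and 773 ± 215 in low-DSCAM nuclei, and DSCAM at 6368 ± 674, 5595 ± 480 and 44.7 ± 20.5 CPM (SD), so that ERBB4+ nuclei also carried DSCAM. PRKCA itself was at 479 ± 80.1 CPM in ON_BCs and 135 ± 19.7 CPM in OFF_BCs (SD, n = 15). CPM was taken on UMI totals pooled from all nuclei of that class and retina (scaled to 1000000), and it is compared within a gene only. Marker lists of other classes were low in ON_BCs. The summed cone list had a median of 134 CPM against 8771 in cones, the rod list 67.0 against 8000, the Müller list 130 against 6168 and the amacrine list 59.1 against 1547. In OFF_BCs the cone, rod and amacrine lists had medians of 181, 82.3 and 117 CPM, and the Müller list 910 CPM, which was 92.7 CPM without SLC1A3. The part of these markers in the results was not tested. Senile 2 was the smallest ON_BC sample, with 84 nuclei and 76365 UMIs.

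ON_BCs and OFF_BCs were compared within each retina, with edgeR's quasi-likelihood test, retina as a block and Benjamini-Hochberg adjustment over 11095 features. Of the 9 measured members, 7 were higher in ON_BCs and 0 were lower, where 18.6% of all features tested were higher and 21.2% lower. GRM6, GNAO1, GPR179, TRPM1, PCP2, RGS11 and RGS7 passed, in descending order of fold change, and LRIT3 and GNB5 did not pass. GRM6 had too few UMIs in OFF_BCs (0 to 27 per retina) to pass the filter in a fit of OFF_BCs alone. It entered this test through ON_BCs, so its place among the 7 and the size of its difference rest on counts near the floor in OFF_BCs. The median log2 fold change of the 9 was 1.66 beside -0.01 over all features. In 4 members (GRM6, TRPM1, GNAO1 and PCP2) the lowest ON_BC retina lay above the highest OFF_BC retina, as did 2.06% of all features tested.

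GRM6 (TSDBGID.12619), the receptor, ranged from 26.8 to 91.7 CPM over the ON_BCs of the 15 retinas with a median of 49.5, and from 0 to 6.92 CPM over the OFF_BCs with a median of 3.73. Every ON_BC sample lay above every OFF_BC sample. The difference was 3.73 on the log2 scale (SE 0.13, adjusted p = 1.54e-19), and the mean was 55.1 ± 19.2 CPM against 3.69 ± 1.71 CPM (SD, n = 15). GRM6 passed the filter through ON_BCs only, and OFF_BCs held 148 GRM6 UMIs in all. The size of this difference, its SE and its p therefore rest on counts near the floor. At least 1 GRM6 UMI was seen in 13.8% of ON_BCs, 0.97% of OFF_BCs, 0.48% of Müller nuclei and 0.26% of amacrine nuclei, whose median depths were 2884, 2216, 1956 and 3165 UMIs. After thinning each nucleus to 1500 UMIs these shares were 7.53%, 0.49%, 0.27% and 0.11%. The share in OFF_BCs lay between that of ON_BCs and that of Müller nuclei, both before and after thinning.

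TRPM1 (TSDBGID.16436), the channel, ranged from 354 to 817 CPM in ON_BCs with a median of 663, and from 90.4 to 292 CPM in OFF_BCs with a median of 168. The groups did not overlap. The log2 difference was 1.83 (SE 0.06, adjusted p = 5.34e-21). In OFF_BCs TRPM1 still lay above the highest class other than bipolar in 14 of 15 retinas, by 1.35 ± 1.03 on the log2 scale (SD), where GRM6 did so in 6 of 15.

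GNAO1 (TSDBGID.15512), the alpha subunit, ranged from 1388 to 2172 CPM in ON_BCs and from 227 to 470 CPM in OFF_BCs, with medians of 1795 and 318. All 15 ON_BC samples were again above all OFF_BC samples. The log2 difference was 2.47 (SE 0.05, adjusted p = 2.89e-24). A GNAO1 UMI was present in 93.2% of ON_BCs and 42.7% of OFF_BCs, or 89.6% and 33.5% after thinning. Cones, with a median of 3098.5 UMIs per nucleus, had one in 17.1% of nuclei, or 7.94% after thinning.

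GPR179 (TSDBGID.9866), the anchoring protein, was at 117 ± 35.1 CPM in ON_BCs and 34.3 ± 8.86 CPM in OFF_BCs (SD, n = 15). It was higher in ON_BCs in 14 of 15 retinas, with a log2 difference of 1.90 (SE 0.08, adjusted p = 1.23e-17). The exception was Senile 2, with 39.3 CPM in ON_BCs, from 3 UMIs, and 51.4 CPM in OFF_BCs. Within retinas whose file headers name Cell Ranger 6.1.2 the difference was 1.51, and within those of 7.0.1 it was 2.08.

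PCP2 (TSDBGID.18076) ranged from 258 to 904 CPM in ON_BCs and from 70.5 to 239 CPM in OFF_BCs, with a log2 difference of 1.66 (SE 0.08, adjusted p = 3.31e-17). PCP2 in ON_BCs also differed between retinas of the 2 Cell Ranger versions in the file headers, with 402 to 904 CPM in the 7 retinas of version 6.1.2 and 258 to 580 CPM in the 8 of version 7.0.1. The difference between ON_BCs and OFF_BCs was 1.79 in the former and 1.55 in the latter.

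The 2 RGS proteins differed in size of contrast. RGS11 (TSDBGID.13109) was at 380 ± 180 CPM in ON_BCs and 197 ± 88.0 CPM in OFF_BCs and was higher in ON_BCs in 15 of 15 retinas, although the ranges of 196 to 881 and 97.5 to 433 CPM overlapped. Its log2 difference was 0.91 (SE 0.05, adjusted p = 2.64e-16). RGS7 (TSDBGID.10877) was at 442 ± 57.3 CPM in ON_BCs and 374 ± 28.6 CPM in OFF_BCs and was higher in ON_BCs in 14 of 15 retinas, with Senile 2 the exception. Its log2 difference was 0.21 (SE 0.04, adjusted p = 0.000215). That call was lost with no filter on low counts (0.13, adjusted p = 0.0514) and in the retinas of Cell Ranger 6.1.2 alone (0.19, adjusted p = 0.0607).

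The obligate RGS partner GNB5 (TSDBGID.21682) was at 61.0 ± 12.4 CPM in ON_BCs and 53.3 ± 9.89 CPM in OFF_BCs, higher in 13 of 15 retinas. Its log2 difference of 0.12 (SE 0.05) did not pass (adjusted p = 0.0760). It passed when Infancy 3, Infancy 5 or Mature 4 was left out (lowest adjusted p = 0.0285, edgeR). LRIT3 (TSDBGID.14936) was at 21.2 ± 9.93 CPM in ON_BCs and 21.1 ± 10.5 CPM in OFF_BCs. Its log2 difference was -0.01 (SE 0.10, adjusted p = 0.996), and it ranged from 5.03 to 39.3 CPM in ON_BCs and from 5.44 to 40.8 CPM in OFF_BCs. The ranges covered each other nearly in full. Both ends of the ON_BC range, Senile 4 and Senile 2, rest on 3 UMIs each.

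**Figure D1:**
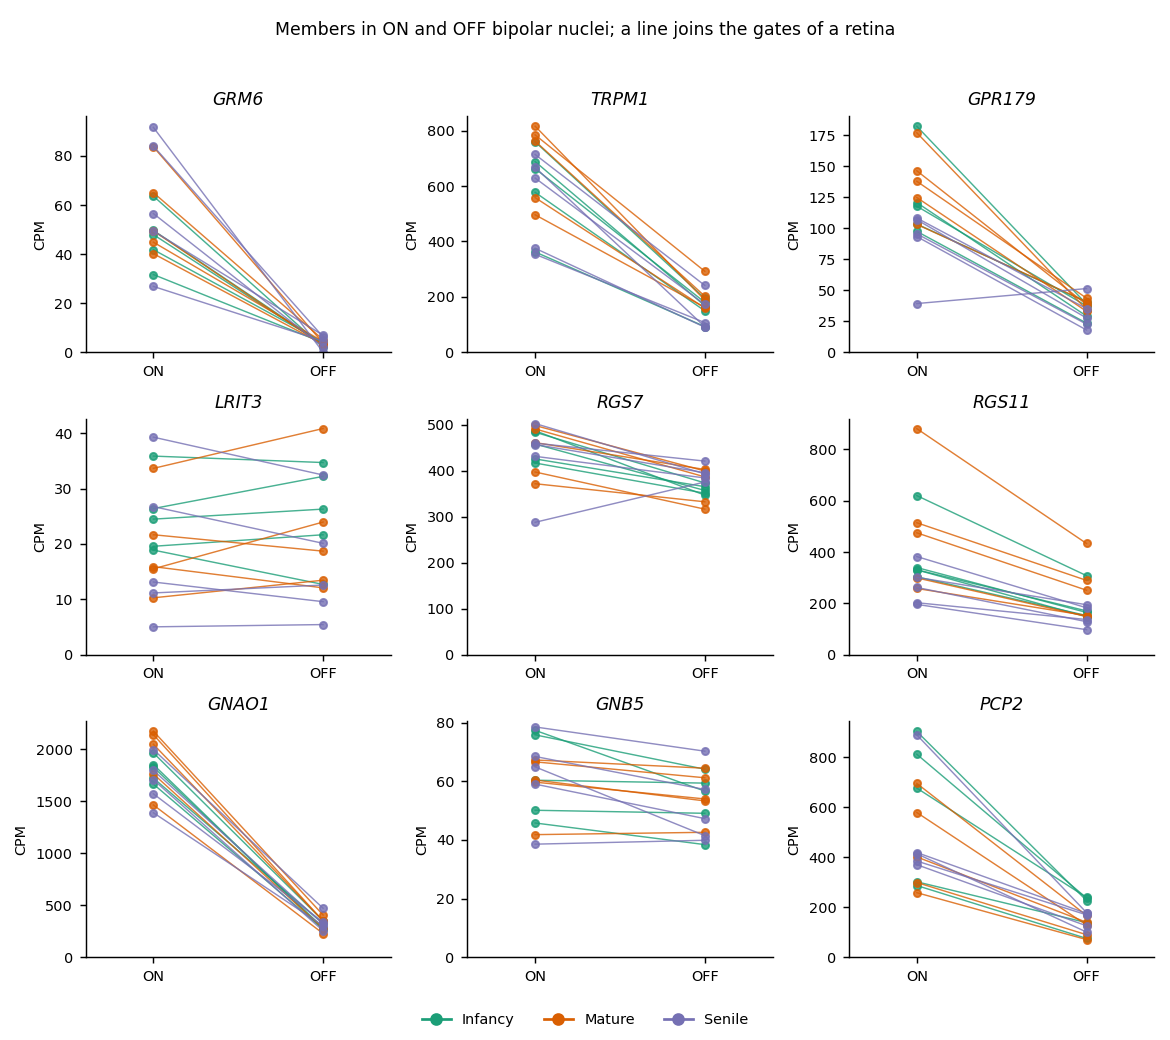
Level of each member in CPM (vertical axis, from 0) in ON_BCs and OFF_BCs, where each line joins the 2 samples of a retina and colours mark the stage. The lines of GRM6, TRPM1, GNAO1 and PCP2 all fall without overlap of the ends, those of LRIT3 cross (means 21.2 and 21.1 CPM), and Senile 2 is the only retina whose GPR179 line rises (39.3 to 51.4 CPM).

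The 8216 bipolar nuclei that met neither definition had mean levels between those of ON_BCs and OFF_BCs for GRM6 (32.8 ± 8.50 CPM), TRPM1 (422 ± 118), GPR179 (91.8 ± 25.6), RGS7 (417 ± 47.7), RGS11 (309 ± 135), GNAO1 (1245 ± 204), GNB5 (56.2 ± 14.1) and PCP2 (347 ± 166). LRIT3 was at 21.9 ± 12.8 CPM there, within 1 SD of both.

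Several members were detected in the same nucleus more often in ON_BCs. In nuclei thinned to 1500 UMIs, 69.8% of 2599 ON_BCs with PRKCA and 65.0% of 2185 without PRKCA had UMIs of at least 3 members, and 16.7% of 10029 OFF_BCs did. No UMI of any member was found in 0.46%, 1.28% and 18.6% of these nuclei. The nuclei were pooled over retinas, and these shares follow the detection of each single member. Whether members occur together beyond that was not tested.

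The OFF subsets were not alike in the cascade. Classes next to each other in the order of mean level were set against one another inside each retina (2-sided exact permutation of signs, 108 tests, unadjusted), with 6.1e-05 the smallest p that 15 retinas allow. TRPM1 was at 383 ± 136 CPM in low-DSCAM OFF_BCs, 80.9 ± 30.1 CPM in DSCAM+ OFF_BCs and 42.6 ± 15.2 CPM in ERBB4+ OFF_BCs. It was higher in the first than in DSCAM+ nuclei in 15 of 15 retinas (log2 difference 2.26 ± 0.42, SD, p = 6.1e-05, exact sign-flip permutation test), and lower than in ON_BCs without PRKCA in 15 of 15 (0.72 ± 0.25, p = 6.1e-05, the same test). A TRPM1 UMI was found in 49.8% of low-DSCAM OFF_BCs, 14.1% of DSCAM+ nuclei and 7.89% of ERBB4+ nuclei, against 3.87% of Müller and 2.87% of amacrine nuclei. After thinning the shares were 36.7%, 9.35%, 4.47%, 2.76% and 1.24%. The OFF subsets had median depths of 2282, 2142.5 and 2450 UMIs.

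GPR179 had another order. It was at 75.4 ± 27.6 CPM in low-DSCAM OFF_BCs and 66.1 ± 26.1 CPM in ERBB4+ OFF_BCs, which did not differ beyond their spread (p = 0.282, exact sign-flip permutation test, 14 retinas), and at 9.59 ± 3.74 CPM in DSCAM+ OFF_BCs. The step from ERBB4+ to DSCAM+ nuclei was 2.62 ± 0.75 on the log2 scale and was seen in 14 of 14 retinas (p = 0.000122, exact sign-flip permutation test). In ERBB4+ nuclei GPR179 was thus high and TRPM1 low among the OFF subsets. GRM6 was low in all 3 subsets, at 4.95 ± 4.06, 2.91 ± 3.76 and 2.99 ± 1.54 CPM in low-DSCAM, ERBB4+ and DSCAM+ nuclei, and the neighbours among them did not differ beyond their spread (p = 0.458 and 0.176, exact sign-flip permutation tests).

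Within OFF_BCs, RGS11 was highest in ERBB4+ nuclei (333 ± 148 CPM), then in low-DSCAM nuclei (215 ± 94.8) and in DSCAM+ nuclei (160 ± 78.7). GNAO1 was at 473 ± 105 CPM in low-DSCAM nuclei, 368 ± 91.0 in ERBB4+ and 222 ± 57.1 in DSCAM+ nuclei. PCP2 had its highest OFF level in DSCAM+ nuclei, at 184 ± 70.1 CPM against 113 ± 42.0 in ERBB4+ nuclei, a difference seen in 14 of 14 retinas (p = 0.000122, exact sign-flip permutation test), and 101 ± 53.5 CPM in low-DSCAM nuclei. RGS7 was likewise highest in DSCAM+ nuclei (424 ± 39.1 CPM, against 313 ± 36.1 in low-DSCAM nuclei and 288 ± 28.2 in ERBB4+ nuclei). LRIT3 was at 46.0 ± 28.4 CPM in ERBB4+ OFF_BCs, its highest mean, against 20.3 ± 10.5 in low-DSCAM nuclei and 15.8 ± 6.64 in DSCAM+ nuclei. That mean did not differ beyond its spread from the 36.2 ± 23.4 CPM of rods (p = 0.481, exact sign-flip permutation test, 12 retinas). The ERBB4+ values of LRIT3 rest on 1 to 24 UMIs per retina. They ran from 15.6 to 85.2 CPM in retinas of the older Cell Ranger version and from 3.71 to 42.6 CPM in those of the newer. In the older version all but Senile 1 were at 64.5 CPM or more. The part of the version in this mean was not tested. GNB5 was at 70.8 ± 28.0, 62.9 ± 12.8 and 43.6 ± 10.2 CPM in ERBB4+, low-DSCAM and DSCAM+ nuclei.

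**Figure D2:**
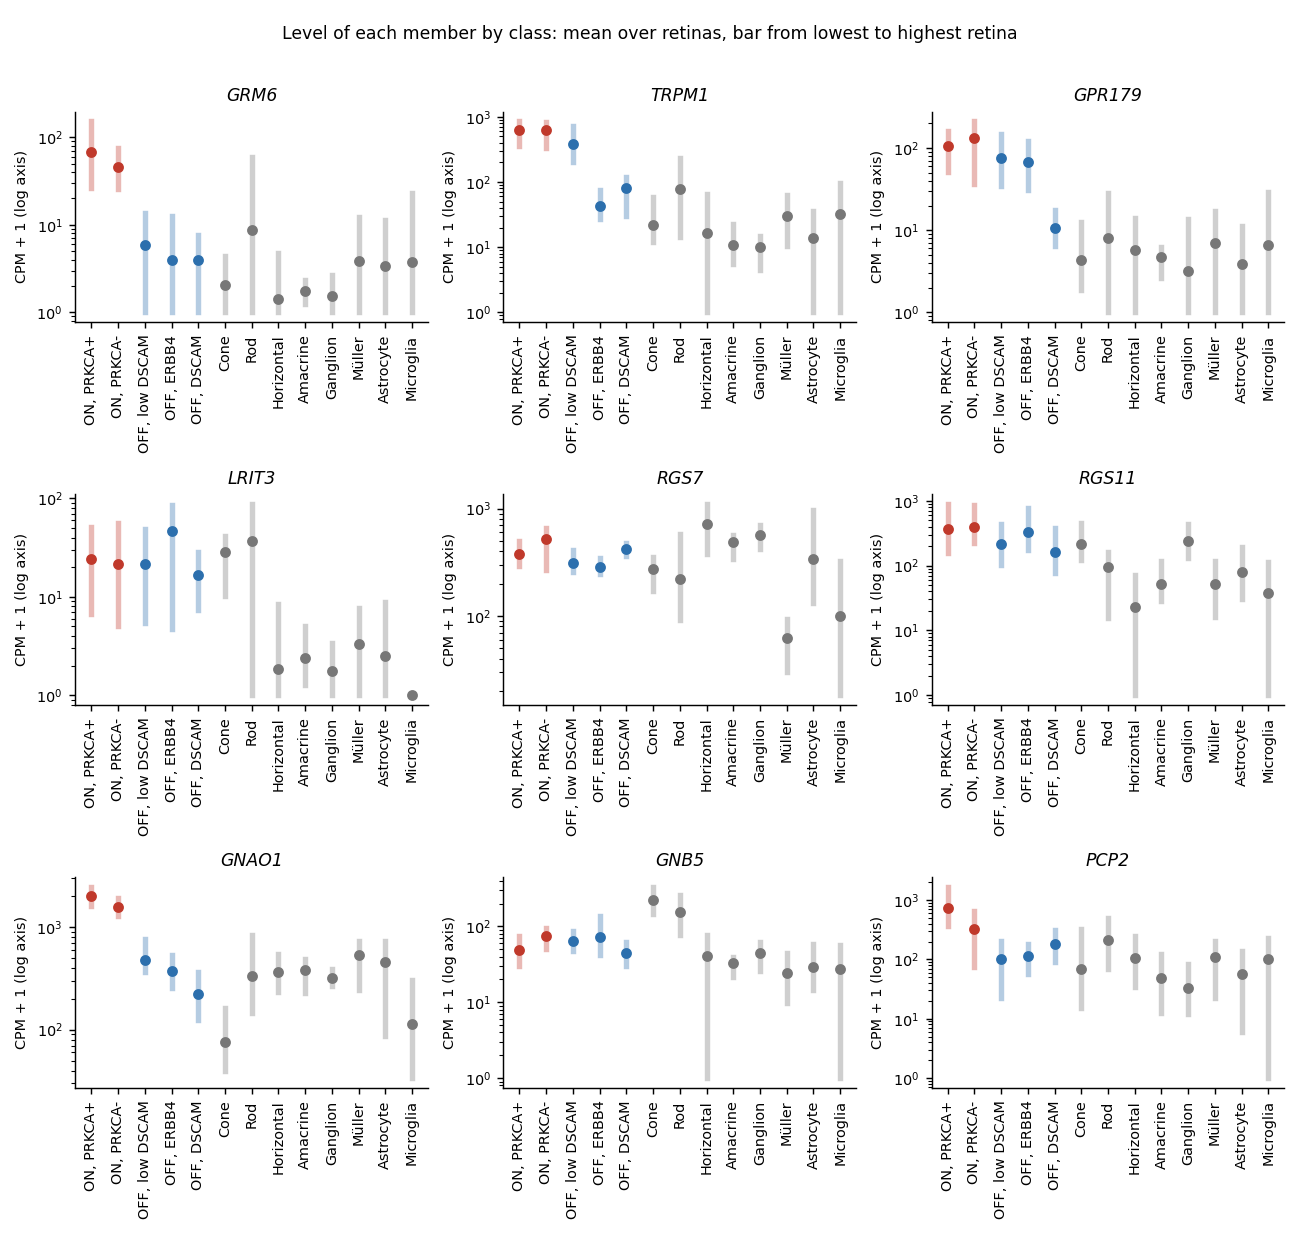
Level of each member as CPM + 1 on a log axis in the 5 bipolar subsets (ON_BCs red, OFF_BCs blue) and 8 other classes (grey), where a point is the mean over retinas and the bar runs from the lowest to the highest retina. GRM6 is high in ON_BCs alone among bipolar subsets. GPR179 is at 75.4 and 66.1 CPM in 2 OFF subsets and at 9.59 CPM in the third. GNB5 is higher in cones (219 CPM) and rods (153 CPM) than in any bipolar subset. LRIT3 is at 46.0 CPM in ERBB4+ OFF_BCs, 36.2 CPM in rods and 27.3 CPM in cones. Its ERBB4+ values run from 3.71 to 85.2 CPM, from 1 to 24 UMIs per retina.

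ON_BCs with and without PRKCA were compared within each retina by the same edgeR test over 4848 features, of which 15.8% were higher and 17.5% lower with PRKCA. Of the 8 members tested, 3 were higher with PRKCA (PCP2, GRM6 and GNAO1), 3 were lower (GNB5, RGS7 and GPR179) and 2 did not pass (TRPM1 and RGS11). LRIT3 had too few UMIs to enter the test. Their median log2 fold change was -0.04 beside -0.000157 over all features. Nuclei with PRKCA were deeper, with a median of 3201 UMIs against 2470, and a nucleus without a PRKCA UMI can belong to a cell that expresses PRKCA. The smallest sample with PRKCA was Senile 2, at 20 nuclei and 19808 UMIs. It held 33 UMIs of PCP2 (1666 CPM), 3 of GRM6 and 1 each of GPR179, LRIT3 and GNB5.

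PCP2 had the widest difference, from 359 to 1666 CPM with PRKCA and a median of 499.9, and from 74.4 to 650 CPM without and a median of 281. It was higher with PRKCA in 15 of 15 retinas, and the log2 difference was 1.33 (SE 0.13, adjusted p = 2.68e-09). A PCP2 UMI was present in 73.7% and 32.2% of the nuclei, 50.2% and 21.1% after thinning, against 14.8% and 7.02% in amacrine nuclei. GNAO1 was at 2015 ± 246 CPM with PRKCA and 1566 ± 201 CPM without, higher in 15 of 15 retinas (log2 difference 0.39, SE 0.04, adjusted p = 1.97e-08). GRM6 was at 66.9 ± 30.7 CPM and 44.8 ± 15.9 CPM, higher in 13 of 15 retinas (0.44, SE 0.09, adjusted p = 0.000503). That difference was 0.76 in the retinas of Cell Ranger 6.1.2 and 0.32 in those of 7.0.1.

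Lower with PRKCA were GNB5, RGS7 and GPR179, while RGS11 did not pass. GNB5 was at 48.2 ± 14.1 CPM with PRKCA and 74.5 ± 14.1 CPM without, and was lower with PRKCA in 14 of 15 retinas (log2 difference -0.68, SE 0.10, adjusted p = 2.22e-06). RGS7 was at 381 ± 62.0 CPM and 523 ± 93.5 CPM, lower in 13 of 15 retinas (-0.50, SE 0.07, adjusted p = 2.24e-06). GPR179 was at 106 ± 30.2 CPM and 130 ± 42.8 CPM, lower in 12 of 15 retinas (-0.32, SE 0.06, adjusted p = 0.000290). In the 7 retinas of Cell Ranger 6.1.2 alone RGS7 (-0.21, adjusted p = 0.136) and GPR179 (-0.31, adjusted p = 0.215) did not pass, and GPR179 did not pass without retina as a block (-0.29, adjusted p = 0.187).

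TRPM1 was at 621 ± 163 CPM with PRKCA and 618 ± 166 CPM without, with a log2 difference of 0.01 (SE 0.05, adjusted p = 0.942). RGS11 was at 372 ± 189 and 394 ± 171 CPM (-0.09, SE 0.06, adjusted p = 0.386). LRIT3 was at 23.2 ± 12.1 CPM with PRKCA and 20.3 ± 12.8 CPM without, from 210 and 144 UMIs, and did not differ beyond its spread (p = 0.208, 2-sided exact sign-flip permutation test, n = 15).

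**Figure D3:**
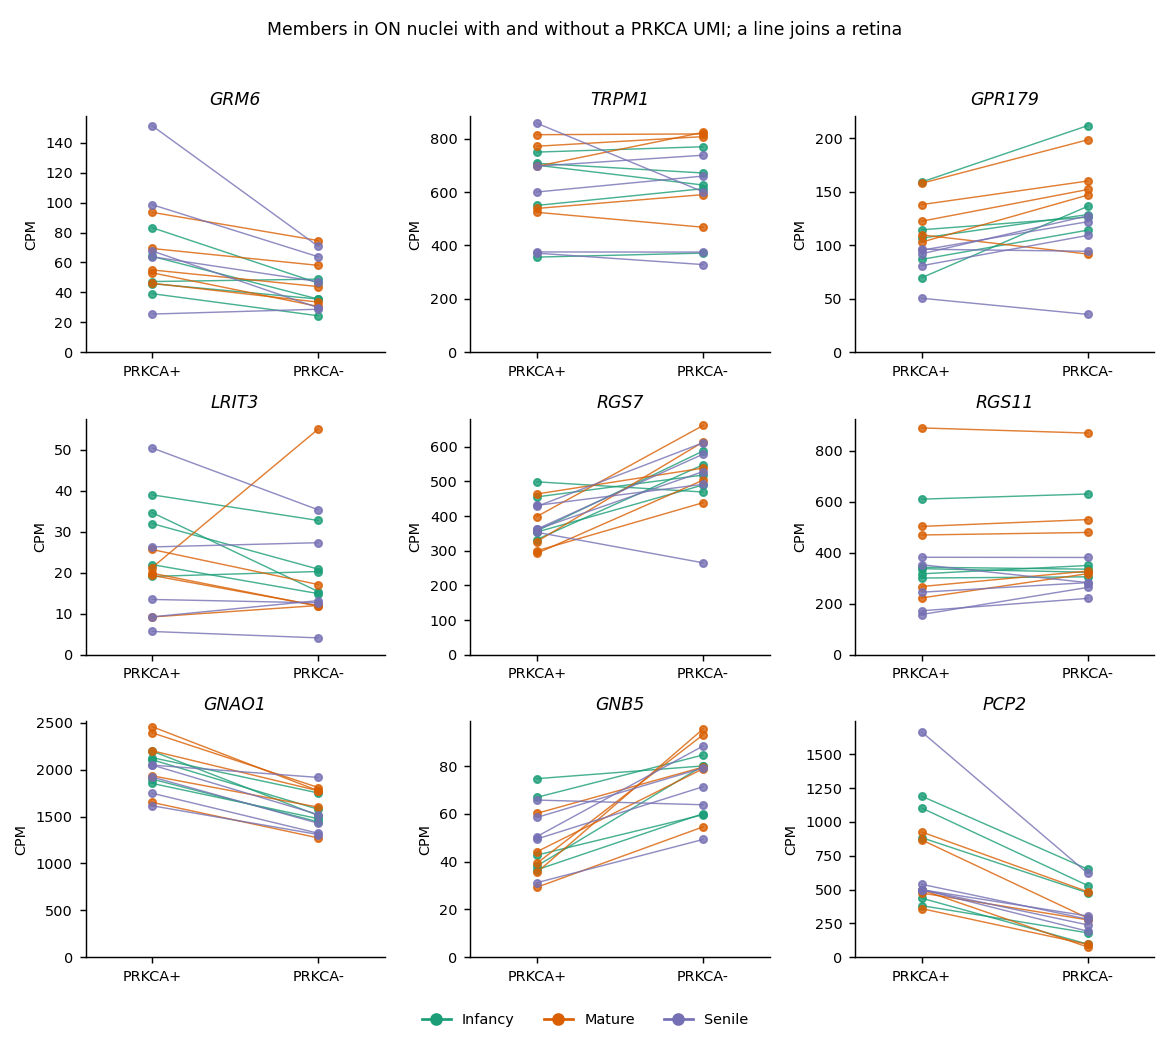
Level of each member in CPM (vertical axis, from 0) in ON_BCs with and without a PRKCA UMI, where each line joins the 2 samples of a retina and colours mark the stage. PCP2 and GNAO1 fall in all 15 retinas, GNB5 rises in 14 of 15, and TRPM1 is level (621 and 618 CPM).

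Bipolar nuclei as a whole were set against the mean of 8 other classes (cone, rod, horizontal, amacrine, ganglion, Müller, astrocyte and microglia) over 17155 features with retina as a block. All 9 measured members were higher in bipolar nuclei, where 40.9% of features were higher and 13.6% lower. The median of all features was 0.21 in this fit and -0.18 with DESeq2 size factors, which gave 3897 features higher and 7449 lower in place of 7010 and 2330, so the members' log2 differences are given relative to the median. These were 4.31 for TRPM1, 4.15 for GPR179, 4.03 for GRM6, 3.17 for LRIT3, 2.16 for PCP2, 1.89 for GNAO1, 1.80 for RGS11, 0.77 for RGS7 and 0.28 for GNB5, with SE from 0.09 to 0.19. GRM6 had few UMIs in several other classes (7 in rod, 8 in astrocyte and 1 in microglia nuclei). LRIT3 had 2 UMIs in horizontal, 6 in astrocyte and 1 in microglia nuclei, and GPR179 had 7, 10 and 4. For GRM6, LRIT3 and GPR179 the size of the difference, and the place among the 9, rest in part on counts near the floor in such classes. With DESeq2 the members' values relative to its median ranged from 0.38 (GNB5) to 4.38 (TRPM1), and LRIT3 was at 2.51.

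A mean over classes does not show whether 1 other class was as high, so each member was also set against its highest other class in the same retina by 2-sided exact sign-flip permutation tests (9 tests, unadjusted, 15 retinas each). Taking the highest class in each retina draws this difference down. A p is therefore given only for members whose mean lay above that class, and the values of the others are a description. GPR179 stayed above it in 15 of 15 retinas (log2 difference 2.46 ± 0.55, SD, exact p = 6.1e-05), TRPM1 in 15 of 15 (2.37 ± 0.98, exact p = 6.1e-05), GRM6 in 14 of 15 (1.86 ± 1.41, exact p = 0.000610), GNAO1 in 15 of 15 (0.69 ± 0.29, exact p = 6.1e-05) and PCP2 in 11 of 15 (0.61 ± 0.87, exact p = 0.0186). That class was most often rods for TRPM1 (11 retinas), PCP2 (8) and GRM6 (5), and rods held 7 GRM6 UMIs in all. The 967 rod nuclei also carried bipolar markers, with NETO1 at 58.0 ± 47.6 and CA10 at 312 ± 194 CPM. In cones these were at 8.42 ± 5.82 and 104 ± 84.1 CPM. The main GRIK1 copy was alike in rods and cones (173 ± 117 and 169 ± 166 CPM). The part of bipolar RNA in the rod levels was not tested.

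RGS11 was above its highest other class in 8 of 15 retinas and did not differ from it beyond its spread (log2 difference 0.11 ± 0.39, exact sign-flip permutation p = 0.309). That class was the ganglion class in 13 retinas (238 ± 79.5 CPM, against 269 ± 128 in all bipolar nuclei). In ON_BCs alone RGS11 lay above it in 14 of 15 retinas. The other 3 members had a mean difference below 0. For GNB5 it was -1.97 ± 0.22, and cones were the highest class in 14 retinas, at 145 to 331 CPM against 39.3 to 67.6 CPM in bipolar nuclei, with no overlap. For RGS7 it was -0.75 ± 0.35, with 726 ± 234 CPM in horizontal nuclei (n = 9), 570 ± 74.1 in ganglion nuclei (n = 14) and 483 ± 57.6 in amacrine nuclei, against 402 ± 31.3 in bipolar nuclei. For LRIT3 it was -0.70 ± 0.51, but the levels overlapped, with 36.2 ± 23.4 CPM in rods (n = 13, from 92 UMIs), 27.3 ± 10.5 in cones and 21.4 ± 10.6 in bipolar nuclei. GNB5 is also the partner of RGS9, which ends the light response of photoreceptors and was at 881 ± 170.0 CPM in cones and 16.7 ± 7.07 CPM in bipolar nuclei.

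Among UMIs in nuclei of a named class, bipolar nuclei held 89.9% of those of GRM6, 89.2% of TRPM1, 89.0% of GPR179, 61.3% of PCP2, 55.8% of GNAO1 and 48.1% of RGS11. Cones held 62.3% of GNB5 and 53.0% of LRIT3, against 17.2% and 39.4% in bipolar nuclei. Amacrine nuclei held 38.5% of RGS7 against 28.2% in bipolar nuclei. These shares follow the number and depth of nuclei as well as the level in each. They leave out 24917 of the 111825 kept nuclei, which were in no named class. Of all UMIs in kept nuclei, bipolar nuclei held 1898 of 2641 for GRM6, 26455 of 36572 for TRPM1 and 6175 of 8436 for GPR179.

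**Figure D4:**
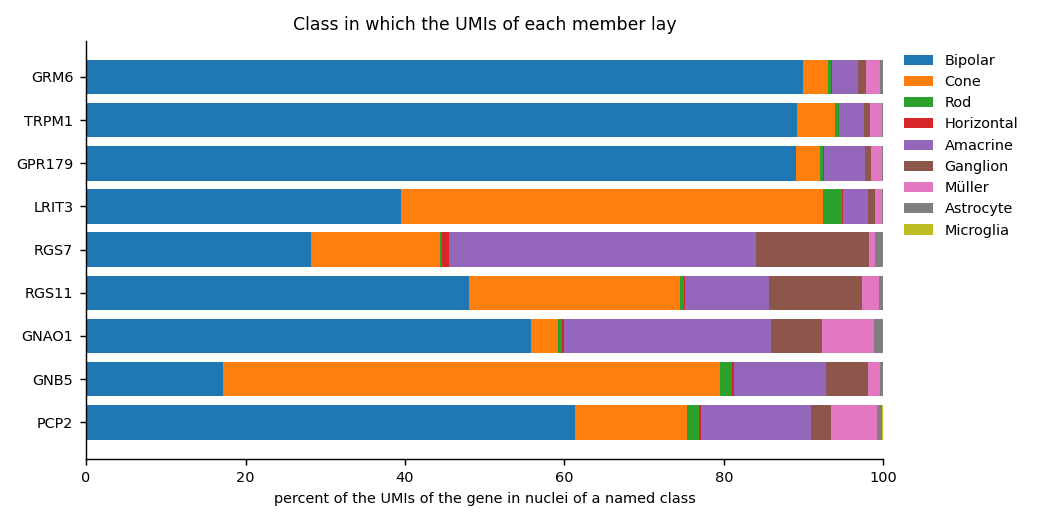
Percent of the UMIs of each member (horizontal axis) that lay in nuclei of each named class (colours). Bipolar nuclei hold 89.0% to 89.9% of GRM6, TRPM1 and GPR179, and cones hold the largest part of GNB5 (62.3%) and LRIT3 (53.0%).

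Within the order of classes, GRM6 stepped from ON_BCs without PRKCA to rods in 12 of 13 retinas. Rods came next by their mean of 7.74 CPM, from 7 UMIs, with a median of 0 and a highest retina of 58.0 CPM. They lay above low-DSCAM OFF_BCs in 4 of 13 retinas. None of the 10 lower neighbours differed beyond their spread (exact sign-flip permutation p from 0.0859 to 0.642). For TRPM1 neighbours below low-DSCAM and DSCAM+ OFF_BCs (77.5 ± 60.0 CPM in rods down to 9.20 ± 3.61 in ganglion nuclei) did not differ either (p from 0.141 to 0.922, exact). LRIT3 fell from 15.8 ± 6.64 CPM in DSCAM+ OFF_BCs to 2.34 ± 2.12 in Müller nuclei in each of the 15 retinas (p = 6.1e-05, exact sign-flip permutation test), so that photoreceptors and all bipolar subsets lay together above the rest. GNAO1 had a step of 1.60 ± 0.27 on the log2 scale from ON_BCs without PRKCA to Müller nuclei (527 ± 112 CPM), in 15 of 15 retinas (exact p = 6.1e-05), and was lowest in cones (74.3 ± 43.9 CPM).

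The stages were compared within ON_BCs in 1 edgeR model of the 15 retinas over 7822 features. None of the 9 members passed in any of 3 contrasts, where 0.588% of features passed for Senile against Infancy, 0.332% for Mature against Infancy and 0.0% for Senile against Mature. At an unadjusted p under 0.05 there were 1, 0 and 2 members, and DESeq2 called 0 members in each contrast. The last contrast, with 0 features called, had 453 features at an unadjusted p under 0.05 and 1 called by DESeq2. Marker lists of other classes moved with stage in part. The cone list had medians of 138, 181 and 275 CPM in Infancy, Mature and Senile OFF_BCs and 123, 169 and 157 CPM in ON_BCs, and the astrocyte list had 27.7, 26.4 and 52.5 CPM in ON_BCs (ranges of 15.6 to 48.3, 24.3 to 38.1 and 14.3 to 55.3 CPM). In OFF_BCs the amacrine list had medians of 110, 132 and 151 CPM, the Müller list 1015, 910 and 860 CPM and the ganglion list 82.3, 44.8 and 49.0 CPM. The horizontal list had 10.6, 18.8 and 26.7 CPM in ON_BCs. The part of these lists in the stage contrasts was not tested.

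GRM6 was at 47.0 ± 11.7 CPM in Infancy, 56.7 ± 17.8 in Mature and 61.7 ± 26.4 in Senile ON_BCs (SD, n = 5 each). The 5 infant retinas ranged from 31.7 to 63.7 CPM, the mature from 40.2 to 83.7 and the senile from 26.8 to 91.7, so the stages overlapped. The log2 difference of Senile against Infancy was 0.20 (SE 0.29, edgeR adjusted p = 1.00), and it ran from 0.01 without Senile 3 to 0.37 without Senile 4. TRPM1 was at 610 ± 153, 684 ± 146 and 548 ± 170 CPM, and its Senile against Mature difference was -0.37 (SE 0.22, edgeR adjusted p = 0.921). GNAO1 was at 1805 ± 117, 1916 ± 300.4 and 1691 ± 229 CPM.

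The smallest unadjusted p of any member belonged to RGS11, at 385 ± 132 CPM in Infancy, 485 ± 247 in Mature and 269 ± 77.0 in Senile ON_BCs. The 5 mature values were 258, 299, 475, 514 and 881 CPM and the 5 senile values 196, 202, 262, 301 and 382 CPM, which overlapped. Senile against Mature gave -0.88 on the log2 scale (SE 0.30, unadjusted p = 0.00964, adjusted p = 0.842, edgeR). With 1 retina left out it ran from -1.10 (without Senile 4) to -0.55 (without Mature 4, the retina at 881 CPM), and the lowest adjusted p was 0.578. Without a filter on low counts RGS11 passed in that contrast (-1.03, adjusted p = 1.96e-05) and in Senile against Infancy (-0.66, adjusted p = 0.0318). In the same contrast GPR179 gave -0.56 (SE 0.20, unadjusted p = 0.0124, adjusted p = 0.842, edgeR), from 138 ± 27.3 CPM in Mature to 88.7 ± 28.4 in Senile, with 124 ± 33.8 in Infancy. Without Senile 2 its difference was -0.49 (adjusted p = 0.930).

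LRIT3 was at 25.04 ± 6.84 CPM in Infancy, 19.4 ± 8.93 in Mature and 19.1 ± 13.8 in Senile ON_BCs, with a Senile against Infancy difference of -0.85 (SE 0.42, edgeR adjusted p = 0.763). RGS7 was at 455 ± 32.4, 444 ± 56.7 and 428 ± 82.3 CPM, GNB5 at 61.9 ± 14.5, 59.2 ± 10.3 and 61.9 ± 14.9 CPM and PCP2 at 597 ± 287, 447 ± 187 and 496 ± 221 CPM. For PCP2 Senile against Infancy gave -0.38 (SE 0.36, edgeR adjusted p = 1.00), and from -0.64 without Senile 2 (adjusted p = 0.782) to -0.20 without Infancy 3.

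**Figure D5:**
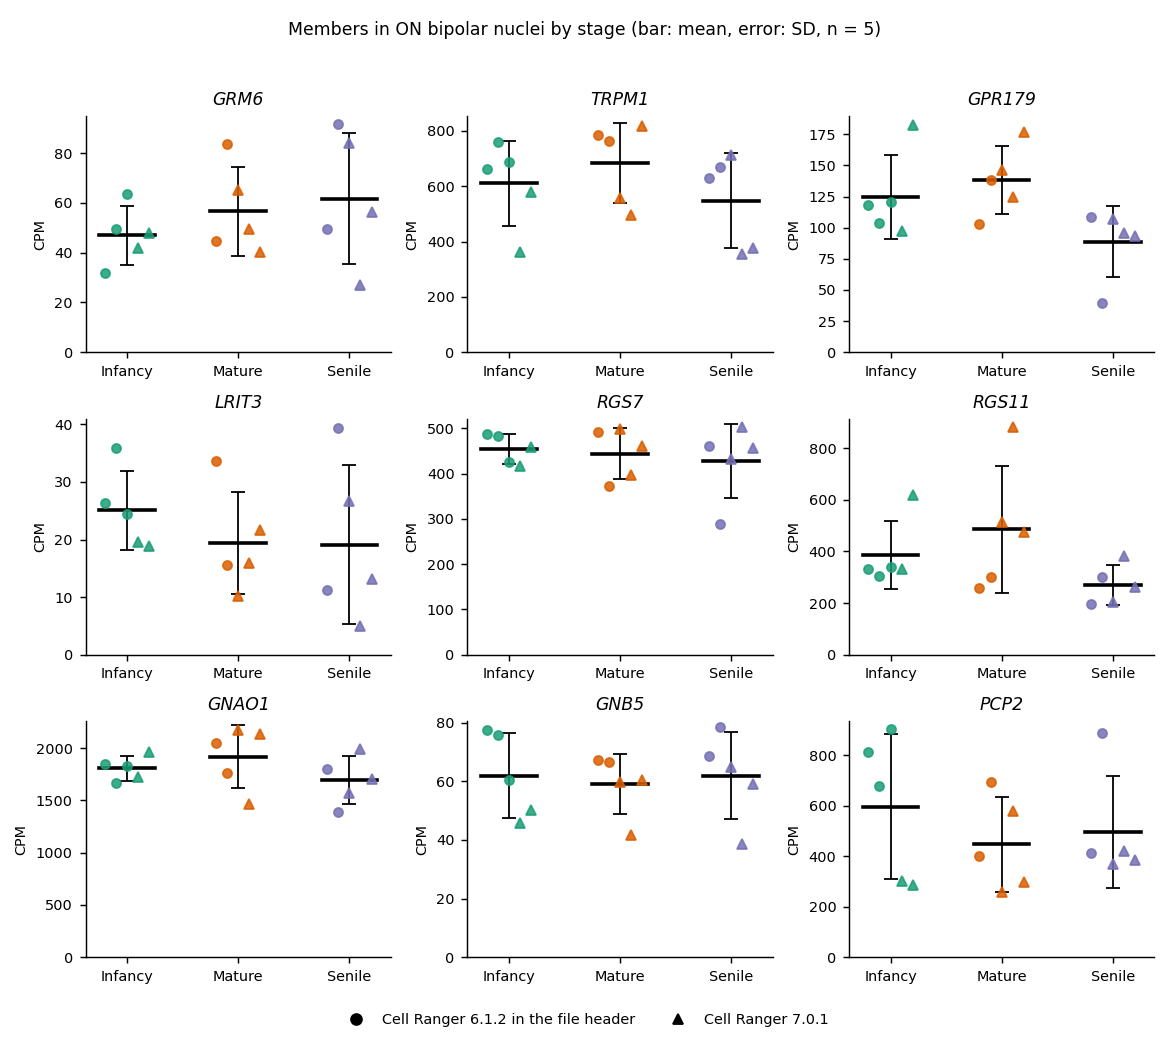
Level of each member in CPM (vertical axis, from 0) in the ON_BCs of each retina by stage, where the bar is the mean, the error bar the SD (n = 5) and the symbol the Cell Ranger version in the file header. The 3 stages overlap for each member, and in GNB5 and PCP2 retinas of version 6.1.2 (circles) lie mostly above those of 7.0.1 (triangles).

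The version in the file headers moved with the level of several members. GNB5 in OFF_BCs was at 56.7 to 70.3 CPM in the 7 retinas of version 6.1.2 and 38.4 to 54.0 CPM in the 8 of 7.0.1, with no overlap, and in ON_BCs at 60.4 to 78.6 and 38.6 to 64.9 CPM. TRPM1 in ON_BCs was at 708 ± 60.3 and 532 ± 170 CPM, RGS11 at 290 ± 49.0 and 458 ± 218 CPM, and LRIT3 at 26.6 ± 10.5 and 16.4 ± 6.85 CPM. Each stage held retinas of both versions (3 and 2 in Infancy, 2 and 3 in Mature and in Senile), and with the version as a covariate no member passed in any stage contrast of ON_BCs. Depth moved with the version as well, with library medians of 1461 to 3068 UMIs per barcode for 6.1.2 and 2268 to 5611 for 7.0.1. The retinas of the 2 versions also form 2 separate blocks of sample numbers in the series. Version, depth and block go together here, and their parts in these levels were not tested.

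In OFF_BCs none of the 8 members tested passed in any of 3 stage contrasts over 12823 features, where 0.733%, 0.468% and 0.0% of features passed for Senile against Infancy, Mature against Infancy and Senile against Mature. GRM6 had too few UMIs to be tested. At an unadjusted p under 0.05 there were 1, 1 and 2 members, and DESeq2 called none. The last contrast had 871 features at an unadjusted p under 0.05 and 15 called by DESeq2. RGS11 was at 189 ± 67.3, 255 ± 117 and 148 ± 40.1 CPM in Infancy, Mature and Senile OFF_BCs, and Senile against Mature gave -0.87 (SE 0.29, unadjusted p = 0.00919, adjusted p = 0.716, edgeR), beside -0.88 in ON_BCs of the same retinas. The difference between ON_BCs and OFF_BCs was then tested for a change with stage over 13740 features. None of the 9 members passed for Senile against Infancy, where 0.0946% of features did, or for Mature against Infancy, where 0.0291% did, and 0 members had an unadjusted p under 0.05 or were called by DESeq2. GRM6 is among the 9 although it had too few UMIs in OFF_BCs to be tested there, and its terms had SEs of 0.39 and 0.38, so little can be read from them. For RGS11 this term was -0.12 (SE 0.12, adjusted p = 1.00, edgeR) in the first contrast, and for GNAO1, with the smallest unadjusted p of the 9, it was -0.24 (SE 0.12, adjusted p = 0.866, edgeR). With 1 retina left out the first ran from -0.17 (without Senile 5) to -0.06 (without Senile 2) and the second from -0.37 (without Senile 5) to -0.15 (without Senile 4).

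The files also name 20 features as antisense to a member, of GPR179, RGS7, GNAO1, TRPM1 and GNB5. No strand setting of the counting was given in the sources used here, so reads of a gene and of its antisense feature may not be told apart and these values are uncertain. Of 6 tested between ON_BCs and OFF_BCs, 4 were higher in ON_BCs and 0 lower, beside 18.6% and 21.2% of all features tested. GNAO1-AS-4 was at 661 ± 108 CPM in ON_BCs and 33.7 ± 10.7 CPM in OFF_BCs (log2 difference 4.34, SE 0.13), with 454 to 861 CPM and 17.3 to 56.2 CPM over the retinas. GNAO1-AS-5 (2.51, SE 0.06), GNAO1-AS-2 (2.34, SE 0.12) and GPR179-AS-1 (2.10, SE 0.10) were the others. Between ON_BCs with and without PRKCA, GNAO1-AS-4 (0.90, SE 0.07), GNAO1-AS-5 (0.42, SE 0.06) and GNAO1-AS-2 (0.34, SE 0.12) were higher and RGS7-AS-6 (-0.66, SE 0.12) and GPR179-AS-1 (-0.48, SE 0.12) lower, of 5 tested, in each case in the direction of the gene of that name.

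Related genes were followed as 4 lists. Their counts stand beside 18.6% of all features higher and 21.2% lower in ON_BCs than in OFF_BCs, and 15.8% higher and 17.5% lower with PRKCA. Their values against the other classes are given before the median of 0.21 over all features is taken off, beside 40.9% of features higher and 13.6% lower, and were not computed with DESeq2 size factors, under which that median was -0.18. Of 8 G protein and RGS partners 7 were measured and 3 were tested between ON_BCs and OFF_BCs. RGS9BP, an anchor of RGS proteins, was higher in ON_BCs (log2 difference 0.55, SE 0.13, 15.0 ± 7.24 against 10.99 ± 3.03 CPM) and RGS9 lower (-0.44, SE 0.13, 10.8 ± 5.43 against 18.8 ± 9.72 CPM). RGS9 was at 881 ± 170.0 CPM in cones, and the cone marker list was likewise lower in ON_BCs than in OFF_BCs (medians of 134 and 181 CPM), whose part in this difference was not tested. With and without PRKCA 1 was tested and did not pass. Against the other classes 2 were higher (RGS9BP 1.06 and RIC8B, a chaperone of G protein alpha subunits, 0.55) and 1 lower (RGS9 -1.77). GNB3, the usual beta subunit of the cascade, had no feature of that name and was not analysed here, and its gamma partner GNG13 had 0 UMIs in ON_BCs.

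Of 9 synaptic partners at the photoreceptor terminal 8 were measured and 6 tested between ON_BCs and OFF_BCs. LRIT1, a relative of LRIT3, was higher in ON_BCs (0.23, SE 0.06, 95.9 ± 62.1 against 76.9 ± 48.5 CPM), and DMD (-1.92, SE 0.07) and ELFN1 (-1.21, SE 0.17), the photoreceptor protein that binds mGluR6, were lower. ELFN1 was at 74.6 ± 19.1 CPM and DMD at 541 ± 89.6 CPM in cones, and the part of the cone markers (134 and 181 CPM, as above) in these differences was not tested. With PRKCA, EGFLAM, the matrix protein pikachurin (-2.10, SE 0.23), and DMD (-1.11, SE 0.09) were lower, of 5 tested. Against the other classes 3 were higher, with CACNA1F (3.92, SE 0.13), a calcium channel subunit, and LRIT1 (3.40, SE 0.13) the largest, and 2 lower, CABP4 (-0.97, SE 0.31) and DAG1 (-0.47, SE 0.08), of 7 tested.

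Of 6 OFF pathway receptor genes 5 were tested between ON_BCs and OFF_BCs, and 4 were lower and 1 higher in ON_BCs, beside 21.2% and 18.6% of all features. GRIA4 (-2.56, SE 0.08), an AMPA receptor subunit, and GRIK5 (-0.57, SE 0.07) and GRIK2 (-0.21, SE 0.07), kainate receptor subunits, were among the lower, and NETO2 (1.12, SE 0.15), an auxiliary subunit of kainate receptors, was higher. GRIA4 was at 191 ± 87.6 CPM in ON_BCs and 1066 ± 139 CPM in OFF_BCs. Within ON_BCs, NETO2 (-2.02, SE 0.15), GRIK2 (-1.37, SE 0.13) and GRIK5 (-0.45, SE 0.11) were lower with PRKCA, of 5 tested. Against the other classes GRIA2 (0.99), GRIK5 (0.85) and GRIK2 (0.63) were higher and NETO2 (-0.48) lower, of 6 tested.

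Among 11 bipolar regulators and calcium-binding genes 7 were tested between ON_BCs and OFF_BCs, with 5 higher and 2 lower, beside 18.6% and 21.2% of all features. BHLHE23, a transcription factor of rod bipolar cells (3.35, SE 0.16, 21.7 ± 8.02 against 1.96 ± 0.793 CPM), and VSX1 (0.80, SE 0.06) were higher, and IRX6 (-2.77, SE 0.22) and BHLHE22 (-0.73, SE 0.08), also transcription factors, were lower. BHLHE23 was near the floor in OFF_BCs and entered the test through ON_BCs, so the size of its difference is uncertain. VSX1 is a marker in the bipolar score, which ON_BCs, with little or no GRIK1, had to reach through the other markers. Its place among the 5 is therefore not independent of the gate. With PRKCA, VSTM2B was higher (1.03, SE 0.11) and VSX1 (-2.37, SE 0.17) and CABP2 (-0.89, SE 0.10), a calcium-binding protein, lower, of 3 tested (15.8% and 17.5% of all features). Against the other classes 7 of 8 tested were higher and 0 lower, among them OTX2 and VSX1, which helped to name the class and are no finding there, and CABP2 (3.73, SE 0.14) and IRX6 (3.01, SE 0.24). No gene of the 4 lists passed in any stage contrast of ON_BCs or OFF_BCs or in its difference between them.

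The features most like GRM6 in mean log2(CPM + 1) over 13 classes and subsets, among 15554 features of at least 10 CPM in 1 of them, were LINC-PELO-5 (Pearson r = 0.97), LINC-LORF2-131 (0.97), LINC-SLC25A4-7 (0.95), ATP8B4-AS-1 (0.94) and LINC-RPL23A-19 (0.94). Among the members TRPM1 came nearest to GRM6 (0.89, rank 22), then PCP2 (0.89, rank 29) and GPR179 (0.79, rank 112), and RGS7 was at 0.00. For TRPM1 they were LIN1li19 (0.98), NA-77-1 (0.96), RALGDS-AS-9 (0.95), TSORFli2591 (0.94) and MEDAG (0.93), with GRM6 at rank 19 and GPR179 at rank 20. The 13 points share retinas, libraries and, within bipolar nuclei, a lineage, so these values are a description.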

How the data were processed

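The authors deposited 1 matrix of UMI counts per retina, whole numbers per feature and nucleus that are not normalized. The file headers name Cell Ranger 6.1.2 for 7 retinas and 7.0.1 for 8, and the submitters' processing notes name 5.0.1 and 7.0.1. Whether intron reads were counted was not given in the sources used here. Of 120437 barcodes, 119765 passed limits of 200 to 6000 genes and at most 5% mitochondrial UMIs. A score from simulated doublets removed 7940 nuclei. Any pair of libraries shared at most 30 barcodes. The largest share of the smaller library was 0.422%, in another pair.

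Each nucleus was named from the markers of its class where the class score was at least 0.5 and 1.5 times the next. Markers with under 500 UMIs were not scored. GRIK1 was summed with its additional copies, since the feature named GRIK1 was nearly empty. This departs from the design as first written. ON_BCs had under 8 and OFF_BCs at least 16 GRIK1 UMIs per 10000, ERBB4+ nuclei at least 64 ERBB4 and DSCAM+ nuclei at least 16 DSCAM UMIs per 10000, and low-DSCAM nuclei had under 64 ERBB4 and under 8 DSCAM UMIs per 10000. A retina entered a class with 20 or more nuclei.

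For each class of each retina the UMIs were pooled and tested in edgeR 4.0.16 (R 4.3.3) with the quasi-likelihood test, TMM scaling, filterByExpr and Benjamini-Hochberg adjustment over all features tested, at 0.05. SE is the log2 fold change over the root of F. The study counts 15 animals for 15 retinas, and the p-values of the fits other than the class fit measure the spread between them. The class fit holds 117 profiles in a model with retina as a block. Its SEs and calls therefore measure the scatter of all its classes over retinas, and not that of the bipolar difference alone. Permutation tests used log2(CPM + 1) with a pseudocount of 1. The scripts were tested on simulated data. Intervals of counting error are not given, and low counts are stated as UMIs.

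The alternatives were DESeq2 1.42.0, no filter, doublets kept, a stricter gate, nuclei thinned to 1500 UMIs, blocks left out or added, the Cell Ranger version as a covariate and each retina left out. Fits on retinas of 1 version, and with nuclei without PRKCA of at least 3000 UMIs only, were added after seeing the data. Members and lists were chosen with earlier results of these data known. The text names all members and their antisense features, up to 4 genes per list and comparison by size of change among those past the threshold, and the 5 features most like GRM6 and TRPM1. Only tables of RefSeq gene names of another build were at hand, so positions and sequences were not used here.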

Additional observations from a re-analysis of the deposited data

Results flagged for a closer look

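In groups of 5 retinas, 5 of 54 groups had 1 retina far from the other 4 (Dixon's ratio above 0.71), and chance flags about 1 group in 20. GPR179 in ON_BCs was highest among infant retinas in Infancy 5, at 182 CPM with the next at 121 CPM. GPR179 was lowest among senile retinas in Senile 2, at 39.3 CPM from 3 UMIs, with the next at 93.4 CPM. RGS11 was highest among infant retinas in Infancy 5, both in ON_BCs (620 CPM, next 339 CPM) and in OFF_BCs (308 CPM, next 171 CPM). PCP2 in ON_BCs was highest among senile retinas in Senile 2, at 890.5 CPM with the next at 419 CPM. Senile 2 had the fewest ON_BCs, 84 nuclei. The cause of these values was not tested.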

How the results depend on the processing

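For single members, leaving out 1 retina left 1422 values of log2 fold change on the same side of the threshold, and 3 GNB5 values passed. Under the other alternatives 744 values stayed on the same side, 6 calls were lost, 2 were gained and 3 called values changed direction. Those 3 were LRIT3, RGS7 and GNB5 against the highest other class. Differences that were not called also changed direction in part, such as GRM6 in ON_BCs for Senile against Mature (-0.21 to 0.15 with 1 retina left out). RGS11, RGS7 and GPR179 changed as given with their results, and the difference from the highest other class was below 0 for LRIT3 (-0.70), RGS7 (-0.75) and GNB5 (-1.97), where taking the highest class in each retina itself draws the value down.

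Counts of all features past the threshold moved as follows. Between ON_BCs and OFF_BCs (4411), 6730 passed with no filter, 2676 thinned, 2183 in retinas of version 6.1.2 and 2655 without retina as a block. For PRKCA (1613), 2839 passed with no filter, 859 with the stricter gate, 909 thinned, 669 in version 6.1.2 and 942 without retina as a block. For bipolar nuclei against other classes (9340), 15219 passed with no filter.

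In ON_BCs, Senile against Infancy (46) gave 351 with no filter, 23 with the stricter gate, 18 thinned and 87 in version 6.1.2. Mature against Infancy (26) gave 49 with DESeq2, 246 with no filter, 7 stricter, 8 thinned, 49 with version as a covariate, 40 in version 6.1.2 and 11 in 7.0.1. Senile against Mature (0) gave 1 with DESeq2, 93 with no filter, 2 in version 6.1.2 and 1 in 7.0.1. With no filter 1 member, RGS11, passed in each Senile contrast.

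In OFF_BCs, Senile against Infancy (94) gave 157 with DESeq2, 281 with no filter, 36 thinned and 59 in version 7.0.1. Mature against Infancy (60) gave 117, 169, 21 and 10 under the same settings. Senile against Mature (0) gave 15 with DESeq2, 38 with no filter, 2 with the stricter gate and 8 with version as a covariate. For the change of the ON to OFF difference with stage, Senile against Infancy (13) gave 8 with DESeq2, 83 with no filter and 6 thinned, and Mature against Infancy (4) gave 0 with DESeq2, 33 with no filter, 1 with doublets kept and 1 thinned.

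With 1 retina left out, these counts ranged from 4122 to 4488 (ON_BCs against OFF_BCs, with 7 to 8 members), 1466 to 1660 (PRKCA, 6 members), 8828 to 9253 (classes, 9 members), 42 to 54, 17 to 28 and 0 to 1 (stages in ON_BCs, in the order above), 88 to 113, 29 to 57 and 0 to 2 (stages in OFF_BCs), and 6 to 21 and 0 to 7 (change with stage), with 0 members in each stage contrast.

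Replicate numbers were not taken to pair the retinas. Retinas of the same number in different stages had correlations from -0.31 to 0.41, with 11 of 15 over 0.1, and 3 of 15 retinas correlated best with their own number. Pairs of other numbers had correlations from -0.56 to 0.59, with 19 of 60 over 0.1. Retinas of the same number mostly shared a Cell Ranger version, whose part was not tested. With the replicate block, 43, 31 and 0 features passed in ON_BCs and 108, 58 and 0 in OFF_BCs, with 0 members. The stricter gate was not run for the class comparison, whose rule asks for no single UMI. In Senile 2, with 84 ON_BC nuclei, LRIT3 and GPR179 rest on 3 UMIs each, GNB5 on 6 and GRM6 on 7.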
